A study of Mus musculus with 35 samples.

Results

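The genes for antibody chains and for the proteins that assemble and display them were followed in whole kidneys of diabetic and control mice. They comprise 9 genes: Jchain, Ighm, Igha, 2 kappa variable genes, Iglv1, Mzb1, Cd79a and Cd79b. The kappa genes belong to the V9 family (gene identifier 434025 in the platform annotation) and the V8 family (384419), and the plots carry their full symbols. All probe sets annotated to 1 of these genes alone were taken, which gave 25 of the 45101 probe sets on the array, and 8 further probe sets name one of them together with other immunoglobulin genes. The genes were picked because diabetic and control kidneys differed in them, so their differences between diabetic and control arrays are given as a description, with no test. RNA came from whole kidneys of FVB/NJ mice, 35 arrays in all. The groups are 6 diabetic and 6 control kidneys aged 2 months, 7 diabetic and 4 control kidneys aged 4 months, and 6 diabetic and 6 control kidneys aged 8 months. The diabetic mice belong to the OVE26 line, which carries a calmodulin transgene expressed in the insulin-producing beta cells of the pancreas and lacks insulin from early life. For the controls the labels give the strain and the age and no other genotype.

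B lymphocytes carry an antibody in their membrane as their antigen receptor, and after activation some become plasma cells, which secrete antibody in large amounts. An antibody is built from heavy chains, which set its class, and light chains of the kappa or lambda type, each with a variable segment chosen from many in the genome. The J chain, the product of Jchain, links the units of polymeric IgM and IgA and is needed for their transport across epithelia. Mzb1 is a chaperone of the endoplasmic reticulum that assists antibody assembly in plasma cells and marginal zone B cells. Cd79a and Cd79b form the signalling pair of the B cell receptor and are carried by B cells rather than by mature plasma cells. In kidneys, B and plasma cells are normally few and lie between the tubules and around vessels.

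The start regions of the 2 members with an entry in the RefSeq promoter table (assembly GRCm38.p6) are shown because one codes for a plasma cell protein and the other for a B cell receptor subunit. Each window runs from 250 bases before to 50 bases after the annotated start. In Jchain (chr5:88527848-88528147, minus strand) capitals mark the E-box letters CANNTG, which E proteins of the B lineage can bind. In Cd79a (chr7:24897247-24897546, plus strand) capitals mark a loose form of the EBF1 site, CNCNNGGGA, and the Ets core GGAAGT.
Jchain: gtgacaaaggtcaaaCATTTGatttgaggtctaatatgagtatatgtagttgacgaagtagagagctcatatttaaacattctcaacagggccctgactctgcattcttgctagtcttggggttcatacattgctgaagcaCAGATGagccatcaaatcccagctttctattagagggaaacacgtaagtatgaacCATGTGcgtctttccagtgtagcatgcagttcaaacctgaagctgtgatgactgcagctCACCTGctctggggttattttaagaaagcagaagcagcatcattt
Cd79a: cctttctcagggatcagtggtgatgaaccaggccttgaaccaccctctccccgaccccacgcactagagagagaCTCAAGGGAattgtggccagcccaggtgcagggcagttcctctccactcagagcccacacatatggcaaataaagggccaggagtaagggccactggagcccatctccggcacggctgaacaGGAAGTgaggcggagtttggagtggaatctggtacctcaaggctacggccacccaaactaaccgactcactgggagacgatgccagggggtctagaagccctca
The Jchain window held 4 E-boxes, and Cd79a held 2, which are not capitalised. Both strands were searched, and 72.3% of the 32851 windows of this length in the table held an E-box. The EBF1 form was found in 21.5% of the windows and the Ets core in 23.8%, so that none of these matches is rare. The octamer ATTTGCAT, known from immunoglobulin promoters, occurred in 1.74% of windows and in neither of these 2. A match describes letters in the window and not binding.

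Signals are log2 values as deposited, and a difference is the diabetic minus the control mean with the standard error of a limma fit over all 35 arrays. Array medians ran from 5.98 to 6.09 in mice of 2 months, from 5.70 to 5.74 in those of 4 months and from 5.96 to 6.01 in those of 8 months, and the ages may have been scaled apart. No pair of arrays was identical. Arrays have no read depth, and their number sets the precision. Probe sets with a mean signal of at least 5.27, the 40th percentile, were tested, 27003 in all, and those with a Benjamini-Hochberg adjusted p under 0.05 are called. Of 25 member probe sets 17 passed this filter, and the 8 others, that of Cd79b among them, have values but no call. Of the 17, 4 had a mean under 5.27 in controls of 2 months and passed through the higher signals of older kidneys. The filter mean includes the diabetic arrays of 8 months, so the filter partly favours members that are high in them. Cd79a and a dimmer kappa V9 probe set passed with 5.73 and 6.20 in diabetic kidneys of 8 months, against 5.17 and 5.30 in controls of that age. Kidney markers were bright, with a mean of 8 genes between 11.68 and 12.21 in diabetic and between 12.30 and 12.36 in control kidneys at 8 months, and of these genes 7 fell and 1 rose.

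At 8 months the genes for IgM, IgA, kappa and lambda chains, the J chain, Mzb1 and Cd79a all had higher mean signals in diabetic kidneys. Over the 25 probe sets the differences ran from -0.03 to 3.46 with a median of 1.06, and 23 were positive. Among the 17 probe sets that passed the filter the median was 1.41, beside -0.01 over all probe sets tested. Nothing is read from this gap, since the contrast chose the genes and the filter partly favours members high in these diabetic arrays. Diabetic and control arrays did not overlap on 5 probe sets, 4 of Ighm and 1 of Mzb1, while 4.28% of all tested probe sets had diabetic arrays above all controls, and nothing is read from this count because the genes were chosen on this contrast. At 2 months the median of the 25 differences was -0.08, and at 4 months it was -0.03. At both of these ages the groups overlapped on all 25, where 1.19% of tested probe sets had no overlap at 2 months and 4.06% at 4 months. In RNA of a whole organ, fewer cells of a type and less RNA per cell cannot be told apart, and the same holds for more.

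**Figure D1:**
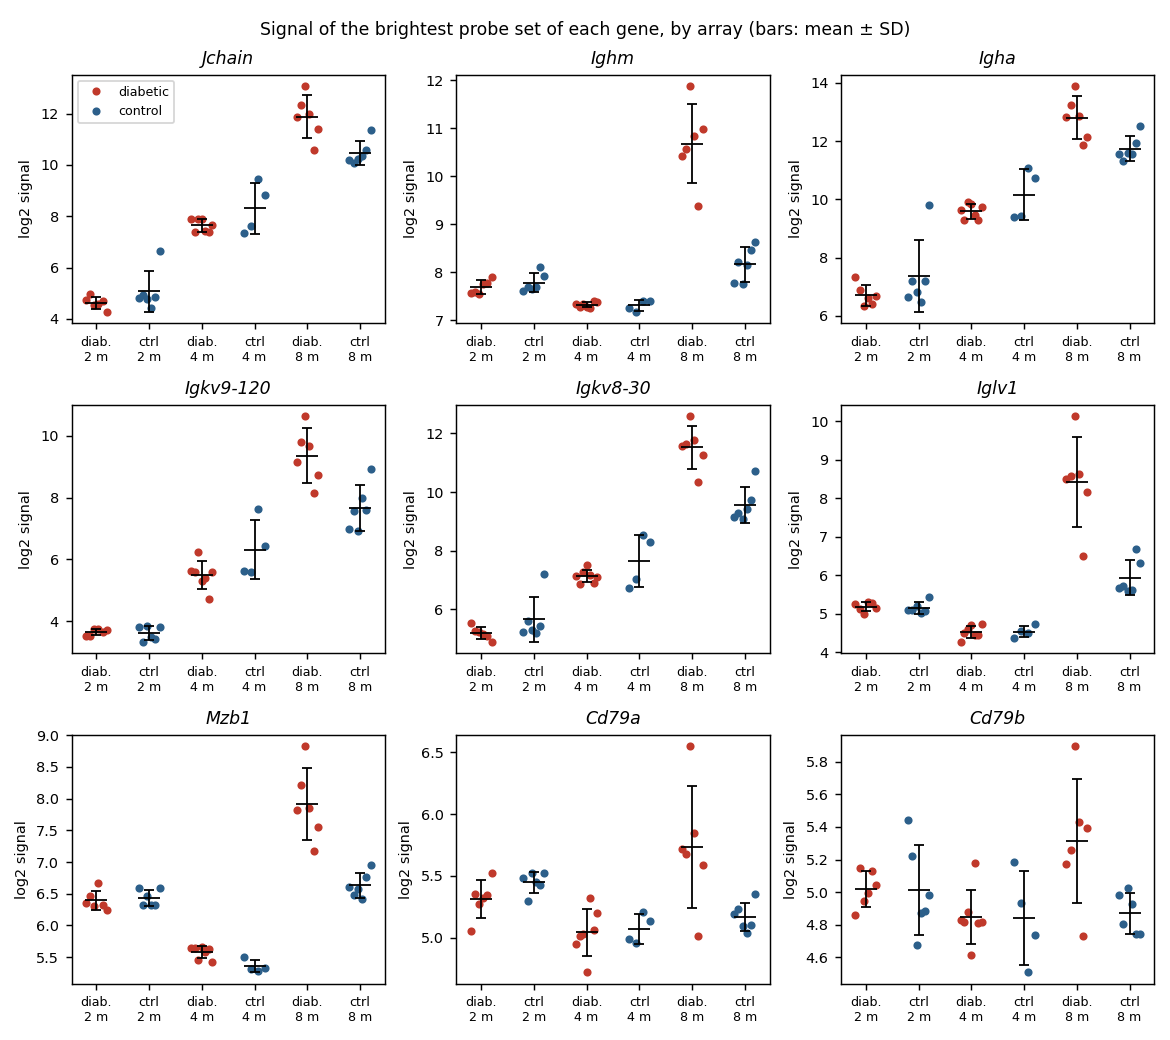
Log2 signal of the brightest probe set of each gene on every array (points), with the group mean and SD (bars), for diabetic and control kidneys at 2, 4 and 8 months. At 8 months the diabetic arrays reach 13.08 for Jchain and 11.89 for Ighm, and the control arrays reach 11.38 and 8.64, while at 2 and 4 months the diabetic and control points of each gene overlap.

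Jchain, the joining chain, gave 10.59 on the lowest, 11.93 at the median and 13.08 on the highest diabetic array at 8 months, against 10.08, 10.29 and 11.38 in controls. In 5 of 6 diabetic kidneys the signal was above every control, and the sixth lay within the control range. The means of 11.88 ± 0.84 and 10.47 ± 0.48 (SD, n = 6 each) differ by 1.41 ± 0.34, or 2.66-fold. Jchain at 2 months gave 4.27, 4.64 and 4.97 (lowest, median, highest) in diabetic kidneys, against 4.43, 4.82 and 6.65 in controls. Control 6 alone made the high end, and without it the difference of -0.44 ± 0.34 shrank to -0.13. The same array had a 3'/5' log2 ratio of 2.56 on the beta-actin control probe sets, where the others of its age had 0.81 to 1.35, and the part of RNA quality in its signals was not tested. At 4 months the diabetic arrays lay between 7.37 and 7.91 with a median of 7.67, and the controls gave 7.36, 7.61, 9.44 and 8.83. Controls 3 and 4 stood apart there, and the difference of -0.67 ± 0.37 became 0.16 without them. These 2 kidneys also had high Arntl, a clock gene, at 7.84 and 8.17, where controls 1 and 2 had 6.15 and 6.14, and the part of this was not tested. Arntl was 7.81 in diabetic array 5 of 8 months and 8.28 in diabetic array 6 of 2 months, the arrays with the lowest Jchain of their groups. It was 7.66 in control 6 of 2 months, the array with the highest Jchain of its group, where the other controls of that age had 6.52 to 6.63. Other arrays went differently. Diabetic arrays 1 and 5 of 2 months had Arntl of 7.80 and 7.88, with Jchain of 4.72 and 4.69, above the median of their group. Controls 5 and 6 of 8 months had the highest Arntl of their group, 6.73 and 6.77, and the highest Jchain, 10.60 and 11.38. The relation of Arntl to Jchain was not tested.

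Ighm, the heavy chain of IgM, is read by 11 probe sets that behaved unequally. The brightest Ighm probe set gave 9.39, 10.71 and 11.89 (lowest, median, highest) in diabetic kidneys at 8 months, against 7.75, 8.19 and 8.64 in controls. Every diabetic array lay above every control on this probe set. The means were 10.68 ± 0.82 and 8.17 ± 0.36 (SD, n = 6 each), a difference of 2.52 ± 0.21 or 5.72-fold. A dimmer Ighm probe set had the largest difference of all 25, at 3.46 ± 0.28 or 10.97-fold, with means of 10.06 ± 0.94 in diabetic and 6.60 ± 0.74 in control kidneys. The other 2 without overlap differed by 3.22 ± 0.27 and 2.68 ± 0.23. The remaining 3 that passed the filter differed by 1.59 ± 0.21, 0.84 ± 0.17 and 0.78 ± 0.19, each with 5 of 6 diabetic arrays above all controls. The 4 Ighm probe sets under the filter differed by -0.03 to 0.52. At 2 months the 11 Ighm differences lay between -0.13 and 0.24, and at 4 months between -0.15 and 0.05. On the brightest, diabetic kidneys at 4 months lay between 7.25 and 7.40, and the controls gave 7.25, 7.17, 7.40 and 7.41, so the arrays that stood apart for Jchain did not do so for Ighm.

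Igha, the heavy chain of IgA, was already bright in controls at 8 months. Its brightest probe set gave 11.87, 12.85 and 13.90 (lowest, median, highest) in diabetic kidneys, against 11.31, 11.58 and 12.51 in controls. The groups overlapped, with 4 of 6 diabetic arrays above all controls. Means of 12.80 ± 0.74 and 11.74 ± 0.43 (SD, n = 6 each) differ by 1.06 ± 0.38, or 2.09-fold, and the other 2 Igha probe sets differ by 1.15 ± 0.38 and 1.18 ± 0.36. At 2 months Igha ran from 6.35 to 7.34 in diabetic and from 6.49 to 9.81 in control kidneys, and the difference of -0.65 ± 0.38 was -0.16 without control 6. At 4 months Igha ran from 9.28 to 9.92 in diabetic kidneys, against 9.39, 9.43, 11.08 and 10.73 in controls. Controls 3 and 4 were again the high ones, and the difference of -0.56 ± 0.41 was 0.19 without them.

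Among the kappa chain segments, the V8 gene gave 10.35, 11.61 and 12.59 (lowest, median, highest) in diabetic kidneys at 8 months, against 9.08, 9.36 and 10.71 in controls. Only the lowest diabetic array fell within the control range. The difference was 1.97 ± 0.32, or 3.92-fold, between means of 11.54 ± 0.73 and 9.56 ± 0.60 (SD, n = 6 each). At 2 months the difference was -0.47 ± 0.32, and -0.16 without control 6, which had 7.20. At 4 months the kappa V8 gene ran from 6.88 to 7.50 in diabetic kidneys, against 6.74, 7.03, 8.53 and 8.30 in controls, and the difference of -0.51 ± 0.35 was 0.26 without controls 3 and 4.

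The kappa V9 gene gave 8.13, 9.42 and 10.63 (lowest, median, highest) on its brightest probe set in diabetic kidneys at 8 months, against 6.91, 7.58 and 8.93 in controls. Here 4 of 6 diabetic arrays were above all controls, and the difference was 1.69 ± 0.33 or 3.24-fold. Its other 2 probe sets differed by 0.91 ± 0.14 and 0.16 ± 0.07, the last under the filter. At 4 months the kappa V9 gene ran from 4.73 to 6.23 in diabetic kidneys, against 5.64, 5.60, 7.62 and 6.42 in controls, a difference of -0.82 ± 0.36, or -0.12 without controls 3 and 4.

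Iglv1, a lambda chain segment, gave 6.49, 8.54 and 10.13 (lowest, median, highest) in diabetic kidneys at 8 months on its brightest probe set, against 5.60, 5.69 and 6.69 in controls. It had the widest spread of the brightest probe sets among diabetic kidneys, with an SD of 1.17, and 5 of 6 were above all controls. The difference was 2.48 ± 0.29, or 5.58-fold. The 2 dimmer probe sets of Iglv1 differed by 0.65 ± 0.19 and 0.02 ± 0.06. On the brightest probe set the Iglv1 differences at 2 and 4 months were 0.03 ± 0.29 and -0.01 ± 0.31.

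Mzb1, the assembly chaperone, gave 7.18, 7.84 and 8.83 (lowest, median, highest) in diabetic kidneys at 8 months, against 6.42, 6.59 and 6.95 in controls. The groups did not overlap. Means of 7.91 ± 0.57 and 6.63 ± 0.19 (SD, n = 6 each) differ by 1.27 ± 0.15, or 2.42-fold. Mzb1 was the member with the highest positive difference at 4 months among those that passed the filter, 0.22 ± 0.16, where 5 of 7 diabetic arrays, with a highest of 5.66, were above the 4 controls at 5.51, 5.31, 5.29 and 5.33. At 4 months the SD of Mzb1 was 0.10 in both groups. The SE pools the spread of all groups, with an SD of 0.57 in diabetic kidneys of 8 months. At 2 months the Mzb1 difference was -0.04 ± 0.15.

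The B cell receptor pair was dim and differed less. Cd79a gave 5.01, 5.69 and 6.55 (lowest, median, highest) in diabetic kidneys at 8 months, against 5.03, 5.14 and 5.35 in controls. One diabetic array was the lowest of all 12 and 5 were above all controls, with a difference of 0.56 ± 0.13 or 1.48-fold. Without diabetic array 3, the highest, it was 0.40. Cd79b, under the filter, gave 4.73, 5.33 and 5.90 in diabetic kidneys against 4.74, 4.86 and 5.03 in controls, and its difference was 0.44 ± 0.13. At 2 and 4 months the Cd79a differences were -0.14 ± 0.13 and -0.03 ± 0.15, and those of Cd79b both 0.01.

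**Figure D2:**
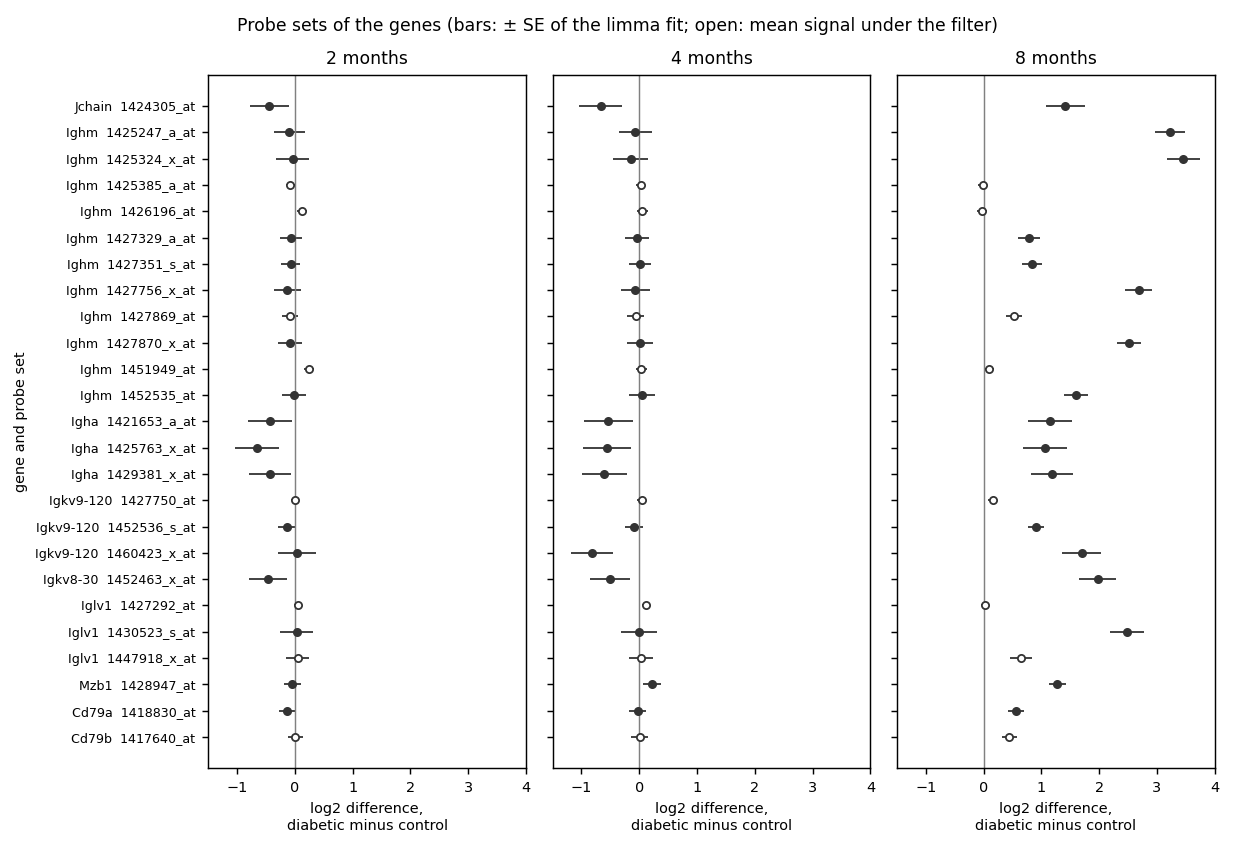
Log2 difference, diabetic minus control, with the SE of the limma fit, for the 25 probe sets that name 1 member gene, at 2, 4 and 8 months. Filled points passed the filter on mean signal and open points did not. At 8 months the Ighm probe sets spread from -0.03 to 3.46, and at 2 and 4 months no difference reaches 0.25 above 0.

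The 8 probe sets that name a member together with other immunoglobulin genes had differences from 0.05 to 1.16 at 8 months with a median of 0.76, and their groups overlapped on all 8. Variable segments and constant regions have many similar copies, and probe sets whose names end in _x_at or _s_at can bind several of them, so signal on these probe sets cannot be tied to 1 segment. The spread of the Ighm probe sets was not traced to the position of their probes, which are not used here.

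At 8 months the same diabetic kidneys were highest and lowest throughout, while the lowest control varied. Of the 17 member probe sets that passed the filter, diabetic array 3 was the highest diabetic array on 17 and diabetic array 5 the lowest on 17, and control array 6 was the highest control on 13. The lowest control was array 3 on 8, array 2 on 5, array 4 on 3 and array 1 on 1. Several of these probe sets read the same gene, so they are not separate observations. After diabetic array 5 was left out, a choice made after seeing the data, diabetic arrays were above all controls on 13 of 17 probe sets. Leaving out the lowest array can only raise this count, and the share over all tested probe sets without it is not given. Nothing is read from the count, since the genes were chosen on this contrast. Leaving out diabetic array 3 lowered the Jchain difference to 1.17, Mzb1 to 1.09 and the brightest Ighm to 2.28. Diabetic array 3 also had the highest mean over 9 macrophage markers, 10.01, and over 5 T cell markers, 6.62. Diabetic array 5 had the lowest of both among diabetic kidneys, 8.41 and 5.85. Across the 6 diabetic kidneys the macrophage means ran from 8.41 to 10.01, against 7.24 to 7.78 in controls, and the T cell means from 5.85 to 6.62, against 5.87 to 6.08 in controls. The part of these in the member differences was not tested. Of 4 lymph node stroma genes with a probe set 1 passed the filter, the chemokine gene Cxcl13, which was called higher at 8 months (limma, with its values beside the other B cell attractants) and had 6.48 to 7.45 in diabetic against 6.26 to 6.66 in control kidneys. The other 3 were dim and differed by -0.02 for Glycam1, -0.14 for Madcam1 and -0.12 for Cr2, and the part of such tissue was not tested.

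Control kidneys of different ages were compared because this contrast uses no diabetic array. The controls of 8 months are also part of the contrast that chose the genes, so its p-values are not free of that choice. Age and the processing of each age's arrays cannot be told apart in it, and the median shift of all tested probe sets was -0.10. Jchain averaged 5.07 ± 0.80 at 2 months (SD, n = 6), 8.31 ± 0.99 at 4 months (n = 4) and 10.47 ± 0.48 at 8 months (n = 6). The difference at 8 against 2 months was 5.40 ± 0.34. The deposited values carry no detection call, and whether the Jchain signal of 2 months, under the filter level, stood above background is not known, so no fold or test is given for it. Igha rose by 4.37 ± 0.38 on its brightest probe set, or 20.7-fold (adjusted p = 7.1e-12), with means of 7.37 at 2, 10.16 at 4 and 11.74 at 8 months. The kappa V8 gene rose by 3.90 ± 0.32, from a mean of 5.67 at 2 months. The kappa V9 gene differed by 4.04 ± 0.33, but its mean of 3.62 at 2 months was also under the filter level. On the brightest probe sets of these 4 genes every control at 8 months was above every control at 2 months, as in 14.7% of all tested probe sets. Nothing is read from this, because the 4 were grouped here as those with the largest rise. Jchain and the kappa V9 gene also passed the filter only through older kidneys. The brightest probe sets of Ighm, Mzb1 and Cd79a overlapped between these ages.

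Other members moved less with age in controls. Iglv1, at 5.15 under the filter level in controls of 2 months, differed by 0.78 ± 0.29, and by 0.63 without control 5 of 8 months. For Ighm the brightest probe set differed by 0.38 ± 0.21 (adjusted p = 0.108), while 2 others rose by 2.30 ± 0.27 and 1.28 ± 0.23. The Ighm probe set with the largest difference at 8 months differed by 1.81 ± 0.28, with 4.79 in controls of 2 months. Mzb1 differed by 0.20 ± 0.15 (adjusted p = 0.244). Cd79a differed by -0.28 ± 0.13 (adjusted p = 0.0672), and after quantile normalization over all arrays it fell by 0.46 (adjusted p = 0.0049). Of all tested probe sets 25.0% rose and 39.7% fell with age, and the members that rose are not counted against this because the filter favours those that are high in older kidneys. After quantile normalization the Jchain difference was 5.43 and that of Igha 4.54, when the median shift of all probe sets was -0.03.

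Within single groups the members could be set against each other without the contrast that chose them. Jchain and Igha, on the same 6 kidneys, went together in diabetic kidneys of 8 months, with r of 0.98 and rho of 1.00. In controls of that age r was 0.98 and rho 0.83. The adjusted p for r was 0.0278 in both (two-sided exact permutation test, over 20 relations). For rho the adjusted exact p was 0.0278 in diabetic and 0.194 in control kidneys, so by rank the relation was not called in controls. Without the 2 arrays farthest from the Jchain median r was 0.98 in diabetic and 0.64 in control kidneys. In controls of 2 months r was 0.99 (exact permutation, adjusted p = 0.0278) and 0.79 without the 2 farthest, of which control 6 is one, and in diabetic kidneys of 4 months r was 0.91 (exact permutation, adjusted p = 0.0603). The rho of these last 2 groups was 0.89 each, with adjusted exact p of 0.167 and 0.082.

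Jchain and Mzb1 were also tied in diabetic kidneys of 8 months, with r of 0.98 and rho of 1.00 (exact permutation, adjusted p = 0.0278 for both), and r of 0.98 without the 2 farthest arrays. In controls of that age r was 0.88 (exact permutation, adjusted p = 0.0833) and -0.46 without the 2 farthest. Jchain and Ighm had an r of 0.86 in diabetic kidneys of 8 months (exact permutation, adjusted p = 0.108), which was -0.59 without the 2 farthest arrays, so it rests on these. Cd79a and Cd79b reached 0.96 in the same kidneys (exact permutation, adjusted p = 0.0833) and 0.19 without the 2 farthest. In all, 4 of 20 relations passed by r and 2 by rho, and 16 of the 20 r values were positive.

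**Figure D3:**
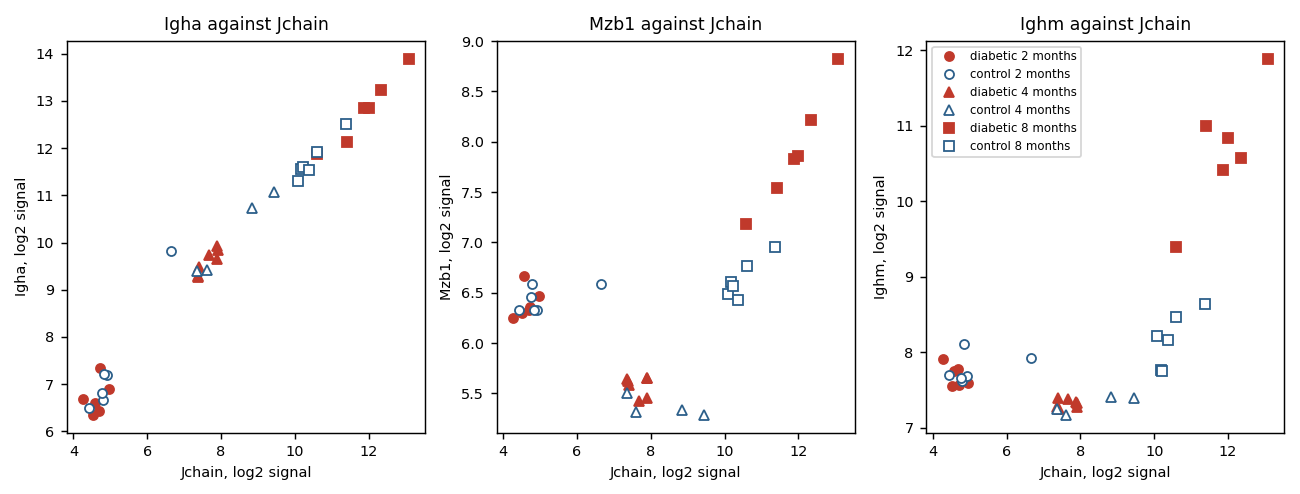
Log2 signals of Igha, Mzb1 and Ighm (y axes, brightest probe set) against that of Jchain (x axis) on all 35 arrays, by group. Igha climbs with Jchain across all ages, from about the lowest points of both at 2 months to 13.08 for Jchain and 13.90 for Igha, while Mzb1 and Ighm are high in diabetic kidneys of 8 months, up to 8.83 and 11.89.

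The genes whose array-to-array pattern was most like that of 3 members were found from the residuals left after removing the 6 group means, over 35 arrays, as a description. Each like gene was taken on its most alike probe set, and the 3 members on their brightest. Residuals of Jchain went with those of the kappa V8 gene and of a dimmer Igha probe set (r of 0.96 each). After these members they went with St8sia4 at 0.83, Tmem158 at 0.79, Col14a1 and Wdfy4 at 0.78 each and Snai2 at 0.77. Those of Ighm went with Iglv1 at 0.87, and after it with Abi3bp at 0.86, Il16 and Fscn1 at 0.83 each, and Col14a1 and Fn1 at 0.82 each. Igha residuals went with Jchain at 0.93 and the kappa V8 gene at 0.92, and then with Reep5 at 0.82, Atf4 and Npc2 at 0.81 and 0.80, and Frk and Hnrnpf at 0.79 each. The points of each pair share their arrays, and the part of RNA quality and of cell content in these values was not tested.

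Antibody genes outside the 9 were examined by the same fit. There were 13 with a probe set of their own, of which 2 passed the filter. Ighg3, the IgG3 heavy chain, averaged 6.90 ± 0.45 in diabetic and 6.04 ± 0.26 in control kidneys at 8 months (SD, n = 6 each) and rose by 0.87 ± 0.13 (limma, adjusted p = 1.2e-05), with every diabetic array above every control, while 12.2% of all tested probe sets were called and 7.14% rose at this age. A kappa gene of the V19 family (identifier 692161) differed by 0.11 ± 0.11 (adjusted p = 0.614). Of the dim ones, a V15 kappa gene (692169) differed by 2.13 ± 0.32 and Igkv6-14 by 1.87 ± 0.28. In a fit without the filter 10 of the 13 rose and 0 fell, with a median of 1.00, where 8.18% of 45037 probe sets were called.

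Genes that mark or drive the B lineage were mixed at 8 months. Of 11 that passed the filter 3 rose and 1 fell, where 7.14% of all tested probe sets rose and 12.2% were called either way, and their median of 0.00 stands beside -0.01 for all probe sets. Cd72, a B cell inhibitory co-receptor, rose by 0.58 ± 0.10 (limma, adjusted p = 6.2e-05), with all 6 diabetic arrays above the controls. Ly6d, a surface protein of early B cells that epithelia also carry, rose by 0.52 ± 0.11 (adjusted p = 0.0013), and Btk, a kinase of B cells and myeloid cells, by 0.48 ± 0.13 (adjusted p = 0.015). Btk lost its call without diabetic array 3 (adjusted p = 0.0679). Fcmr, the IgM receptor of B cells, fell by 0.43 ± 0.14 (adjusted p = 0.0307), and this call was lost on leaving out any of 5 arrays, diabetic 2, 3 and 5 and control 1 and 2. Pax5, the B cell identity factor, differed by -0.17 ± 0.07 (adjusted p = 0.146). Ms4a1, the gene of the B cell antigen CD20, was under the filter and differed by 0.14 ± 0.17. Pou2af1, the octamer coactivator of B and plasma cells, was under the filter too and differed by 1.72 ± 0.23 (adjusted p = 2.7e-06 without a filter), and was named after its values were seen.

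Of 15 plasma cell and antibody-secretion genes 3 rose and 0 fell at 8 months, with a median of 0.20, beside 7.14% that rose and a median of -0.01 over all tested probe sets. Sdc1, the syndecan used to mark plasma cells and also made by epithelia, averaged 8.10 ± 0.52 in diabetic and 7.16 ± 0.18 in control kidneys and rose by 0.94 ± 0.15 (limma, adjusted p = 5.4e-05). Creld2, an endoplasmic reticulum protein of the folding stress response, rose by 0.90 ± 0.24 (adjusted p = 0.0089). Ell2, an elongation factor that favours secreted heavy chain RNA in plasma cells, rose by 0.39 ± 0.09 (adjusted p = 0.0034). Each of these 3 had all 6 diabetic arrays above the controls. Xbp1, the secretory regulator, was bright in all kidneys, at 12.39 ± 0.16 in diabetic and 12.17 ± 0.12 in control (SD, n = 6 each), and differed by 0.22 ± 0.10 (adjusted p = 0.184). Prdm1, the plasma cell regulator Blimp-1, differed by -0.09 ± 0.13 (adjusted p = 0.763). Derl3, a degradation factor of secretory cells, differed by 0.39 ± 0.17 (adjusted p = 0.155). Irf4, a regulator of plasma cell formation, was under the filter and differed by 0.93 ± 0.17 (adjusted p = 0.00023 without a filter), and Tnfrsf17, the plasma cell survival receptor BCMA, by 0.25 ± 0.11. Irf4 and Tnfrsf17 were named after their values were seen.

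Signals that draw or keep B and plasma cells were represented by 7 tested genes, of which 3 rose and 1 fell at 8 months, with a median of 0.56, beside the same 7.14% and -0.01. Cxcr4, a chemokine receptor of plasma cells and many other leukocytes, rose by 1.03 ± 0.25 (limma, adjusted p = 0.0046). Its difference at 4 months was nearly as high, 1.02 ± 0.27, and not called (adjusted p = 0.0842). Tnfsf13b, the B cell survival factor BAFF, rose by 0.81 ± 0.14 (adjusted p = 0.00012), with 7.01 ± 0.54 in diabetic and 6.19 ± 0.17 in control kidneys. Cxcl13, the B cell attractant, rose by 0.56 ± 0.15 (adjusted p = 0.013), a call that was lost without diabetic array 3 (adjusted p = 0.0557). Cxcl12, the ligand of Cxcr4, fell by 0.36 ± 0.09 (adjusted p = 0.005), with all 6 diabetic arrays below the controls.

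Receptors that bind or carry antibody included 9 tested genes, of which 4 rose and 0 fell at 8 months, with a median of 0.24, again beside 7.14% and -0.01 over all tested probe sets. Fcgr3, an activating IgG receptor of myeloid and natural killer cells, averaged 7.70 ± 0.73 in diabetic and 6.12 ± 0.25 in control kidneys (SD, n = 6 each) and rose by 1.57 ± 0.20 (limma, adjusted p = 1.3e-06). Fcer1g, the signalling chain shared by Fc receptors, rose by 0.92 ± 0.13, Mrc1, the macrophage mannose receptor, by 1.01 ± 0.19 and Fcgr4, an IgG receptor of myeloid cells, by 0.44 ± 0.14. The call of Fcgr4 was lost on leaving out any of 5 arrays of 8 months, diabetic 1 and 3 and control 2, 5 and 6. Pigr, the epithelial carrier of polymeric IgA and IgM, averaged 9.60 ± 0.53 in diabetic and 10.06 ± 0.55 in control kidneys and differed by -0.47 ± 0.33 (adjusted p = 0.428). Fcamr, a further gene of this list, was under the filter and differed by -0.60 ± 0.09, and was named after its values were seen. In a fit without the filter 4 of the 10 genes of this list rose and 1 fell, where 8.18% of 45037 probe sets were called. At 4 months Fcgr2b, the inhibitory IgG receptor, fell by 0.62 ± 0.14 (adjusted p = 0.0289), where 0.585% of all tested probe sets were called, and this was lost when any of 6 arrays was left out, diabetic 1, 2 and 6 and control 2, 3 and 4. At 2 months 0 genes of the 4 lists were called by limma, where 1.55% of all tested probe sets were, 8 of the 42 tested had an unadjusted p under 0.05, and with replicate number as a block 1 was called, the kinase gene Pim2, at 0.22 ± 0.05 (adjusted p = 0.036). Of the macrophage markers 8 of 9 also rose at 8 months, with a median of 1.58, and their covariation with the antibody receptors across arrays was not computed. Of the T cell markers 3 of 5 rose, Cd3e by 0.36, Cd3d by 0.38 and Thy1 by 0.46. These T cell calls were near the threshold, and leaving out 1 array ended that of Cd3e in 3 cases, of Cd3d in 26 and of Thy1 in 21. Of 3 tested neutrophil markers 0 were called at 8 months, Elane differing by -0.06 and Ngp by -0.12, and 0 of the 3 at an unadjusted p under 0.05. The neutrophil genes S100a8 and S100a9, under the filter and named after their values were seen, differed by 1.04 ± 0.28 (limma, adjusted p = 0.0156 without a filter) and 0.75 ± 0.25 (adjusted p = 0.0622), with 0 of 6 diabetic arrays above all controls on either. Without the filter 1 of 7 neutrophil markers rose and 0 fell.

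Among the adipocyte markers 3 passed the filter, and at 8 months 0 were called higher and 1 lower, where 12.2% of all tested probe sets were called. Their array means ran from 6.58 to 7.46 in diabetic and from 5.34 to 8.82 in control kidneys. The 3 differences were mixed, from -2.20 to 0.85 with a median of -0.25. The one called lower was Ucp1, the uncoupling protein of brown fat, with 4.92 ± 0.24 in diabetic and 7.12 ± 1.11 in control kidneys (SD, n = 6 each). Its difference was -2.20 ± 0.47 (limma, adjusted p = 0.0013). At 4 months it fell by 2.28 ± 0.51 (adjusted p = 0.0217), a call lost without diabetic array 1, control 1 or control 2. Of the kidney markers Slc12a3, the sodium chloride carrier of the distal tubule, fell by 0.77 ± 0.12 at 8 months (adjusted p = 3.4e-05), Nphs1, the nephrin of podocytes, by 0.61 ± 0.13, Lrp2, the megalin of the proximal tubule, by 0.50 ± 0.13 and Umod, the uromodulin of the thick ascending limb, by 0.29 ± 0.05. The part of fat and of tubule content in the member differences was not tested.

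**Figure D4:**
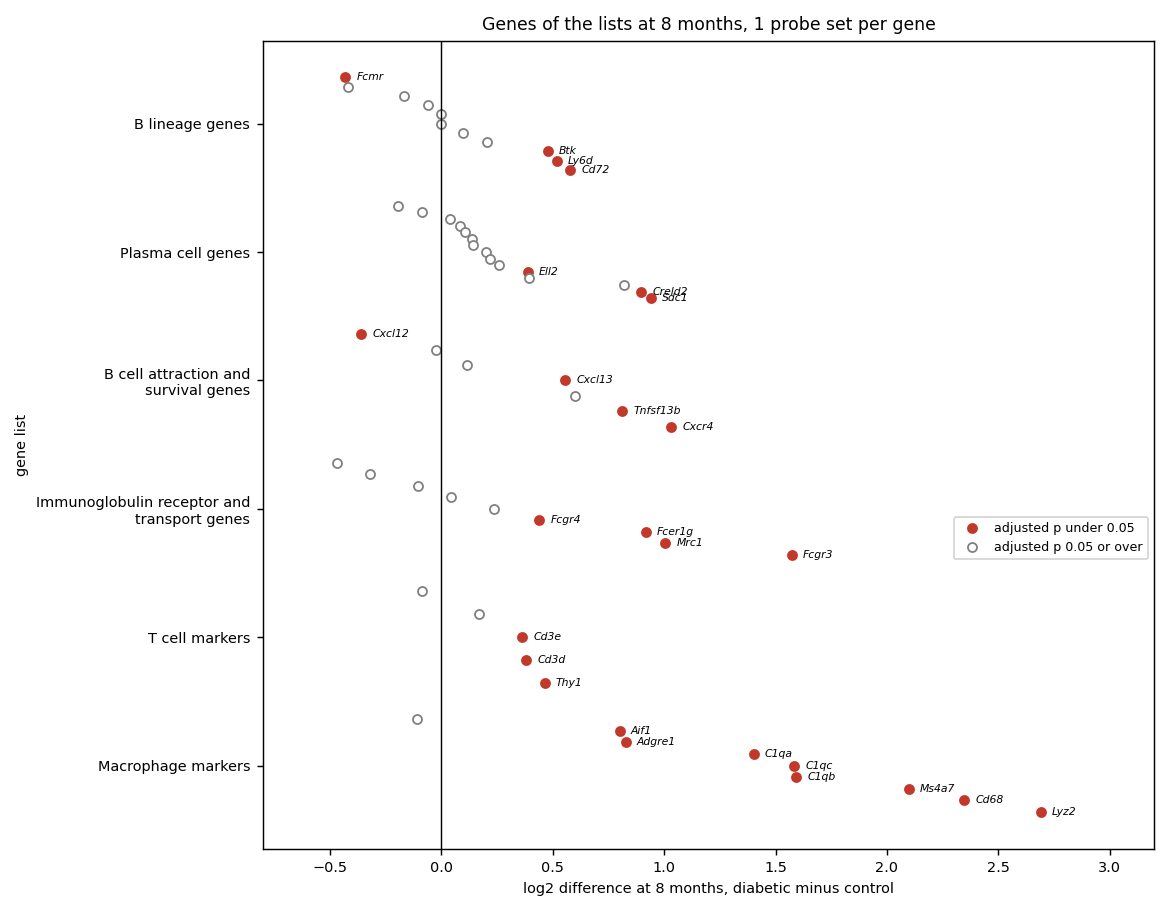
Log2 difference at 8 months, diabetic minus control, for each tested gene (points) of 4 antibody-related lists and of T cell and macrophage markers, with filled points for an adjusted p under 0.05. The B lineage points straddle 0, from -0.43 to 0.58, the plasma cell points reach 0.94, and the macrophage points run up to 2.69.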

How the data were processed

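Total RNA from whole kidneys was labelled with biotin and hybridised to Affymetrix arrays, per the labels' protocols. The log2 values of 45101 probe sets on 35 arrays were used as deposited by the authors; how background, summarization and normalization were done before that is not given in the sources used here. Of the probe sets 34945 name 1 gene, 932 several, 9160 none and 64 are controls. The columns were matched to the samples through the labels, which do not say whether replicates are separate animals, so p-values measure the spread between these arrays.

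A mean for each of the 6 groups was fitted in R 4.3.3 using limma 3.58.1 and the package data.table, version 1.17.8, and left 29 residual degrees of freedom. Non-control probe sets with a mean at or above the 40th percentile (5.27) were tested, 27003 in all, two-sided, with Benjamini-Hochberg adjustment over them, and called under 0.05. On simulated data for the contrast at 8 months, over 27003 probe sets, the fit recovered 96% of 100 probe sets changed by 1 on the log2 scale and 100% of 100 changed by 2, with 11 false calls. A single spread is taken over all groups, so standard errors tend to be small where the diabetic kidneys of 8 months vary more. At 2 and 4 months they tend to be large on probe sets whose arrays vary less at those ages, which can cost a call there. For a gene outside the members the brightest probe set over all arrays was used. Correlations used exact permutation of all orders.

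The members and lists were chosen with earlier results of these data known. Named from each list were up to 4 called genes with the smallest p at any age, or 2 of the brightest where none was called. Also named were the 4 brightest other immunoglobulin genes and, for 3 members, the 5 genes most alike. Fcgr4, Pim2, Glycam1, Madcam1, Cr2, Pax5, Ms4a1, Xbp1, Prdm1, Derl3, Pigr and the genes marked so in the text were added after their values were seen. List genes without a probe set of their own in the annotation were not analysed here. Promoter windows are from RefSeq. Some kappa variable genes are given in the text by family and by the annotation's gene identifier, and the plots carry the full symbols of the members among them.

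Same-numbered diabetic and control arrays deviated together at 2 months (r of 0.25 to 0.62 in 6 of 6 pairs), less so at 4 months (1 of 4 pairs over 0.1) and at 8 months (3 of 6). The labels give only numbers, and arrays of different numbers were not set beside these pairs, so a pairing at 2 months is not established. Alternatives were other filters, normalizations, array weights, a fit of each age alone, a replicate block and leaving out arrays.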

Additional observations from a re-analysis of the deposited data

Results flagged for a closer look

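Among 150 groups of member probe set values examined, 12 had an array far from the others. These groups share arrays, and several probe sets read the same gene, so they are not separate observations. The share over all probe sets is not given, and nothing is read from the count. Control 6 of 2 months accounts for 7 of them. It was the highest on Jchain (6.655), on all 3 Igha probe sets (9.8, 9.813 and 9.246), on the kappa V8 gene (7.202), on a dim Ighm probe set (4.172) and on a dim Iglv1 probe set (3.454). On the same dim Ighm probe set diabetic array 2 of 8 months was the highest of its group (4.661), and on another Ighm probe set control 6 of 8 months was (6.473). At 4 months control 1 was lowest on a dim Ighm probe set (3.164), and control 2 was lowest on a brighter one (6.624) and highest on a dim Iglv1 probe set (3.752).

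The difference between diabetic and control kidneys was itself different at 8 and 2 months, by a test of this change in the limma fit, for 18 genes outside the members. The share of all tested probe sets called for such a change is not given, so nothing is read from this count. The change, on the log2 scale, was 0.7265 for Cd72 and 0.5955 for Ly6d of the B lineage. It was 1.058 for Sdc1, 0.8985 for Derl3 and 1.417 for Creld2 of the plasma cell list, 0.8688 for Tnfsf13b, 1.532 for Fcgr3, 0.8848 for Fcer1g and 0.8965 for Ighg3. Of the macrophage markers it was 2.194 for Cd68, 2.645 for Lyz2, 0.7647 for Adgre1, 2.156 for Ms4a7, 0.8461 for Aif1, 1.353 for C1qa, 1.643 for C1qb and 1.526 for C1qc. For Nphs1, a podocyte gene, it was -0.8247. Part of the change of Derl3 and Creld2 lay at 2 months, where they differed by -0.51 and -0.52, and Derl3 was called at neither age.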

How the results depend on the processing

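The median of the 17 tested member differences at 8 months, 1.41, ran from 1.30 to 1.49 over the 9 alternatives that kept all 17, and from 1.17 to 1.67 with single arrays left out. Over other sets of member probe sets it was 1.06 for all 25 without the filter, 1.30 for the 8 left by a filter at the 60th percentile and 1.55 with 1 probe set per gene. The counts moved more. Over all tested probe sets, 418 were called at 2, 158 at 4 and 3288 at 8 months. With array weights these were 1733 at 2 and 1407 at 4 months, with the replicate block 666 and 98, and with each age fitted alone 59 and 478. Without arrays 5 and 6 of 2 months 550 were called at 4 and 5581 at 8 months, and without controls 3 and 4 of 4 months 4 were called at 4 months. With 1 probe set per gene 2187 were called at 8 months, fewer being tested. Leaving out single arrays gave 208 (without control 2 of 2 months) to 1112 (without control 5 of 2 months) calls at 2 months and 28 (without control 3 of 4 months) to 254 (without control 6 of 2 months) at 4 months. Of the 4 antibody-related lists 15 genes were called at 8 months, and 7 with a filter at the 60th percentile. The count of tested member probe sets that rose with age in controls, which the filter partly fixes, was 10, and 6 with that filter and 5 with 1 probe set per gene. The replicate block took no call from the genes named from the lists at 8 months, and could not be fitted for the control ages. No call changed direction. Except where fewer probe sets were tested, the cause was not tested. How far the dim probe sets stood above background limits what can be said of Cd79b.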
